A study of Mus musculus with 6 samples.

Results

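The receptors, decoy and antagonist genes of the interleukin-1 (IL-1) family were described in γδT17 cells (interleukin-17-producing γδ T cells) before and after culture. The 8 members (Il1r1, Il1r2, Il1rap, Il1rl1, Il18r1, Il18rap, Sigirr and Il1rn) were taken by their symbol in the deposited tables and were 8 of the 26771 genes listed in at least 1 library. The cells came from spleens of C57BL/6 mice of the genotype TCRβ-/-, which lack αβ T cells. The Initial group held cells sorted from splenocytes before culture. The Induced group held splenocytes grown with IL-1β and IL-23 for 8 days, then purified with the Pan T Cell Isolation kit II. Each group had 3 messenger RNA libraries, from mice A, B and C. The labels do not say whether the Initial and Induced libraries of a letter came from the same spleen, so values by mouse pair the libraries by letter only. All mice carried the same deletion, the age of the animals and the sorting gate were not given in the sources used here, and the groups differed in both culture and purification, which cannot be told apart. The values are FPKM, fragments scaled to transcript length and library size, so levels of different genes can be compared per length.

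IL-1 family cytokines signal through a ligand-binding chain and an accessory chain, whose intracellular TIR domains meet, recruit the adaptor Myd88 and IRAK kinases, and lead to NF-κB and MAP kinase activity. IL-1α and IL-1β use Il1r1 with Il1rap, IL-18 uses Il18r1 with Il18rap, and IL-33 uses Il1rl1 with Il1rap. Il1r2 binds IL-1 and has no TIR domain, Il1rn is a secreted antagonist that occupies Il1r1, and Sigirr is a family member that dampens signalling. In γδ T cells, IL-1β together with IL-23 is a known inducer of IL-17 production without T cell receptor ligands, and IL-18 with IL-23 can act in a similar way.

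The label was checked against marker genes, each list given as its summed FPKM. The 10 γδ T cell markers summed to 2944 to 3136 FPKM in Initial and 3288 to 3685 FPKM in Induced libraries, with Trdc, the δ chain constant gene, at 320 to 335 and 299 to 357 FPKM. Initial libraries also held markers of other cells. The 7 red cell markers summed to 1220 to 1745 FPKM before and 1.17 to 1.64 FPKM after culture. The 9 dendritic cell markers summed to 721 to 859 and 27.2 to 56.2 FPKM, most of it from Ccr7, a chemokine receptor gene that T cells also express. Without Ccr7 the other 8 summed to 17.6 to 23.6 FPKM before and 6.86 to 16 FPKM after culture. Clec9a was at 0 in all Induced libraries. In the whole list 5 of 8 tested markers fell and 2 rose, Xcr1 (mean 0.762 to 2.35 FPKM) and Batf3 (1.23 to 4.85 FPKM). The 8 NK cell markers summed to 191 to 225 and 142 to 558 FPKM, but 4 of 6 tested markers fell and only Gzma, a granzyme gene, rose. Without Gzma the other 7 summed to 174 to 191 FPKM before and 28.8 to 95.8 FPKM after culture, with Klra8 and Klra4 at 0 in all Induced libraries. The 10 markers of group 2 innate lymphoid and regulatory T cells, which can express Il1rl1, summed to 118 to 141 and 167 to 245 FPKM. Of the 7 tested markers, however, 5 fell, Gata3 among them, and only Rora rose. Foxp3, a regulatory T cell marker below the filter, was also higher in every Induced library (mean 0.0988 to 0.389 FPKM). Without Rora the other 9 summed to 86.7 to 112 FPKM before and 44.1 to 52.4 FPKM after culture. Their part in the changes below was not tested.

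The ligand-binding chain gene of the IL-1 receptor, Il1r1, and both chain genes of the IL-18 receptor rose after culture, and the decoy gene Il1r2 fell. Of the 6 members tested, 3 rose (Il1r1, Il18r1 and Il18rap), 2 fell (Il1r2 and Sigirr) and 1, Il1rap, did not pass. The other 2, Il1rl1 and Il1rn, stayed under FPKM 1 in all 6 libraries and were below the filter of FPKM 1 in at least 3 libraries. The 6 tested members reached FPKM 1 in every library, so none passed the filter through 1 group alone. A gene was called at an adjusted p under 0.05 from limma with Benjamini-Hochberg adjustment over all 11265 genes tested. Among these, 70.4% were called (37.3% rose and 33.1% fell), and the groups did not overlap for 75.4%. The share of members called was close to that background, so the count says nothing particular about the family, and the sizes and directions for each gene follow.

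**Figure D1:**
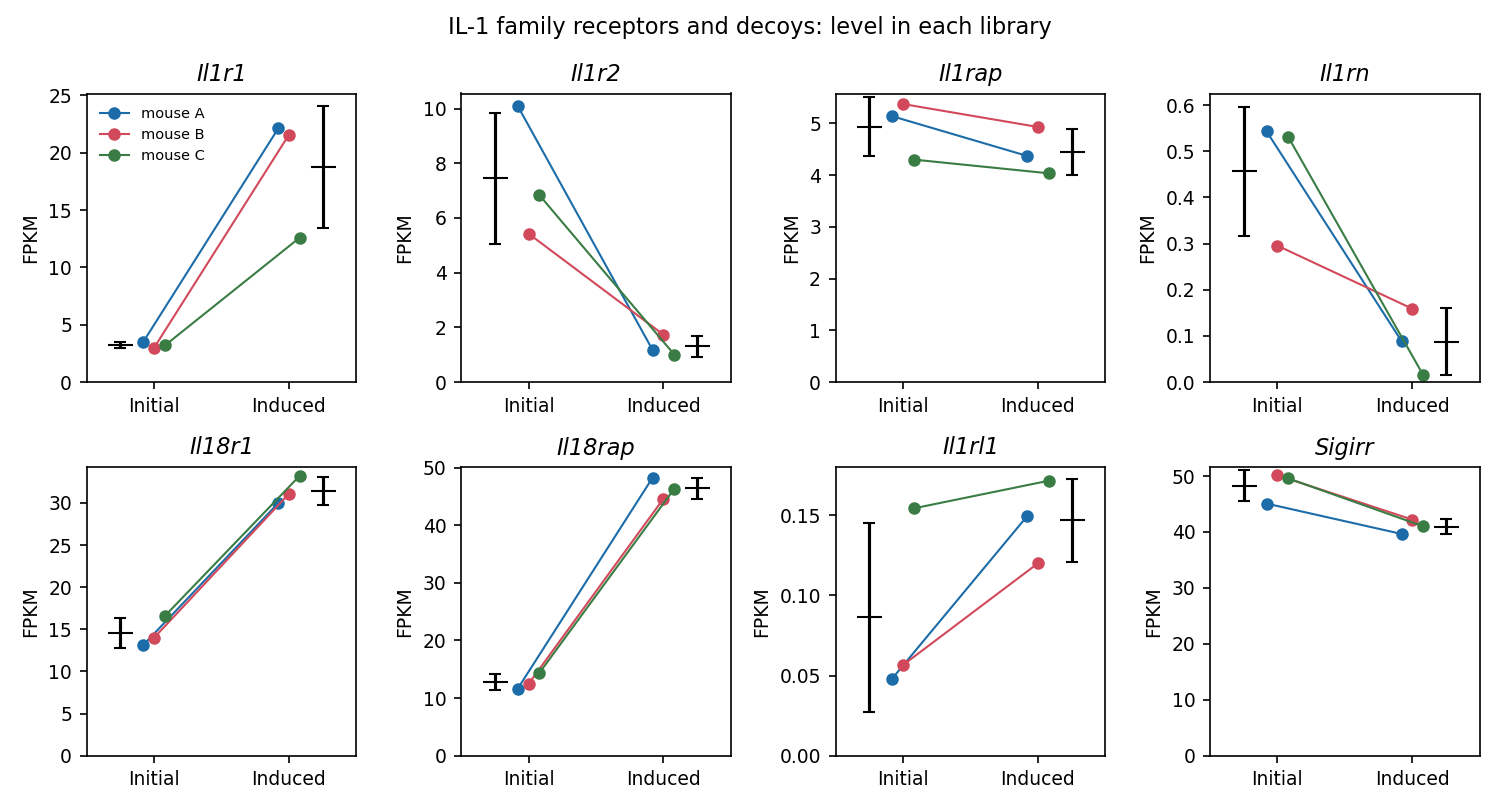
FPKM of each member (y axis, linear from 0, a scale of its own in each panel) in Initial and Induced libraries. Coloured points joined by lines are mice A, B and C, and black bars give the mean ± SD of 3 libraries. Il1r1, Il18r1 and Il18rap are higher in every Induced library, Il1r2, Il1rn and Sigirr are lower in every one, and Il1rap and Il1rl1 overlap.

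The members differ in place and in length. The positions are those of GENCODE on GRCm38, which the deposited spans match for every member but Il1rap, whose deposited span ends 25385 bases further on. Il1r2 (ENSMUSG00000026073, chromosome 1, 40074079 to 40125231), Il1r1 (ENSMUSG00000026072, 40225080 to 40317257), Il1rl1 (ENSMUSG00000026069, 40429570 to 40465415), Il18r1 (ENSMUSG00000026070, 40465552 to 40500854) and Il18rap (ENSMUSG00000026068, 40515362 to 40551705) lie in that order on the plus strand. Il1rn (ENSMUSG00000026981) is on chromosome 2, 24336853 to 24351494, Sigirr (ENSMUSG00000025494) on chromosome 7, 141091175 to 141100572, and Il1rap (ENSMUSG00000022514) on chromosome 16, 26581704 to 26730117. The longest annotated protein of Il1r1 has 576 residues and that of the decoy Il1r2 has 410. The values are per gene, so soluble and membrane forms of 1 gene were not told apart.

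The regions just before the start sites of the 4 members with the largest changes are shown. These genes lie near each other on the same chromosome, and Il1r2 fell while Il1r1, Il18r1 and Il18rap rose. The sequences are from RefSeq (GRCm38.p6, plus strand, 250 bases before to 50 bases after an annotated start), and 7 of the 8 members had at least 1 such region. Where a gene had several, only 1 is shown. For Il1r1 it is the upstream region, and for Il18r1 the region with the most matches. Capitals mark every match, on either strand, to AP-1 (TGANTCA), NF-κB (GGANTTTCC), STAT (TTCNNNGAA), RUNX (TGTGGT) or T-box (GGTGTGA) letters. No matches overlapped each other.
Il1r1, chr1:40224830-40225129: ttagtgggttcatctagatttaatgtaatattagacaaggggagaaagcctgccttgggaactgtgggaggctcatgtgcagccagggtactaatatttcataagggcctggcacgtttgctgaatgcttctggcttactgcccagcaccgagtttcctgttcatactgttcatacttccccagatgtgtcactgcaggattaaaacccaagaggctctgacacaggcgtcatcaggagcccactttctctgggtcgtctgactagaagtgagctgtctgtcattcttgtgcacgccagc
Il1r2, chr1:40085843-40086142: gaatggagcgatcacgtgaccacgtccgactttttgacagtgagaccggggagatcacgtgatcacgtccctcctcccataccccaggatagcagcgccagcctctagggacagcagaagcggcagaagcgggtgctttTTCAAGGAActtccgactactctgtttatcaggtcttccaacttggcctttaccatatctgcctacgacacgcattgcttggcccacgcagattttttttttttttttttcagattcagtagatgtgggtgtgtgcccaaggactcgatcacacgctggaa
Il18r1, the third of its starts, chr1:40465756-40466055: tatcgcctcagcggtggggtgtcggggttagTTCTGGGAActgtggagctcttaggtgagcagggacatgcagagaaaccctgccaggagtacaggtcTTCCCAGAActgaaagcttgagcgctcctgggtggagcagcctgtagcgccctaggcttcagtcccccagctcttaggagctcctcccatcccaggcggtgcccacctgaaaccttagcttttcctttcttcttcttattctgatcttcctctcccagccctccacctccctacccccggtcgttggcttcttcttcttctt
Il18rap, chr1:40515112-40515411: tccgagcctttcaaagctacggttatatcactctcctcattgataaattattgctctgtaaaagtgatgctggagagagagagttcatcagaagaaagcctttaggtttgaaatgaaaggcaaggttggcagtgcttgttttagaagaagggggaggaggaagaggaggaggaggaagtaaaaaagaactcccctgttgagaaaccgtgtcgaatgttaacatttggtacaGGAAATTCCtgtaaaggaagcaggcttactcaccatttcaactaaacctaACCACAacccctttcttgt

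The Il18rap region held 1 match to the NF-κB letters, with its first base 19 bases before the start, and 1 to RUNX. The NF-κB letters were in 1.25% of all 32851 regions of this length in the table and in 2 of the 13 member regions, the other being the downstream start of Il1rl1. STAT letters occurred in the Il1r2 region and in the Il18r1 region shown, which held 2 matches, against 8.30% of all regions. The upstream Il18r1 regions, starting at 40465302 and 40465371, held 0 and 1 match. The latter was to RUNX, so neither held STAT letters. Neither of the Il1r1 regions held a match to any of these letters. RUNX letters were in 16.8% of all regions and 3 of the 13, AP-1 letters in 7.81% and 1, and T-box letters in 3.98% and none. Some of the 13 regions belong to the same gene and overlap, and a match is only a match of letters. Which start site the cells used was not measured.

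Il1r1, the chain that binds IL-1 and signals, was low before culture. It stood at 3.52, 3.00 and 3.20 FPKM in Initial libraries A, B and C, and at 22.1, 21.6 and 12.6 FPKM in the Induced libraries. Every Induced library was above every Initial library, and Induced C was the lowest of its group. The mean went from 3.24 ± 0.261 to 18.8 ± 5.34 FPKM (SD, n = 3), a ratio of means of 5.79. On the log2(FPKM + 1) scale, used for all fold changes here, the log2 fold change was 2.18 (SE 0.20, limma adjusted p = 3.9e-05), and without Induced library C it was 2.43. By mouse, the ratio of Induced to Initial FPKM was 6.29 in A, 7.19 in B and 3.94 in C. Of the tested genes, 3.09% had a larger rise. Before culture 20.5% of the tested genes had a lower mean FPKM than Il1r1, and after culture 60.5%.

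Il1r2, which captures IL-1 without signalling, moved the other way. Its level was 10.1, 5.43 and 6.84 FPKM in Initial A, B and C and 1.17, 1.73 and 1.01 FPKM in Induced A, B and C. The groups did not overlap, and the spread was wide before culture, where A was the highest. The mean fell from 7.45 ± 2.39 to 1.31 ± 0.380 FPKM (SD, n = 3), with a log2 fold change of -1.85 (SE 0.21, limma adjusted p = 0.00012), and 6.28% of the tested genes had a larger fall. Initial levels were 8.61, 3.13 and 6.77 times the Induced levels in mice A, B and C. With a pseudocount of 5 in place of 1, which shrinks changes of low values, the log2 fold changes of Il1r2 and Il1r1 were -0.97 and 1.502, and both passed. An antisense gene, Gm16894, overlaps Il1r2 and was listed at no more than 0.132 FPKM in any library. Gm37347 overlaps Il1r2 on the same strand, at no more than 0.192 FPKM. Gm38070 overlaps Il1r1 on the same strand, at no more than 0.0248 FPKM.

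Other cells of the spleen also express Il1r2 and Il1rn, so marker levels are given beside them. In bulk RNA, fewer cells of a type and less RNA per cell cannot be told apart. All 14 macrophage and monocyte markers fell, and their summed level was 1305, 1079 and 686 FPKM in Initial A, B and C and 9.39 to 11.3 FPKM in the Induced libraries. The 12 neutrophil markers summed to 22.8, 4.12 and 8.63 FPKM in Initial A, B and C, which is the order of Il1r2 in these libraries. In Induced cells that sum was 43.0, 53.2 and 11.1 FPKM, most of it from Mmp9, a matrix protease gene that is not restricted to neutrophils. Without Mmp9 the other 11 markers summed to 20.3, 1.48 and 4.49 FPKM in the Initial libraries and 5.05, 0.919 and 0.819 FPKM in the Induced libraries. The 10 B cell markers summed to 237 to 282 FPKM in Initial and 99.1 to 161 FPKM in Induced libraries. Of the 9 tested, 8 fell and only Blk rose. Blk held most of the Induced sums, with 109, 113 and 73.0 FPKM in Induced A, B and C. Before culture it had 21.2, 20.9 and 21.9 FPKM in Initial A, B and C. The part of these cells in the fall of Il1r2 was not tested.

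Il1rap, the accessory chain that Il1r1, Il1rl1 and the decoy Il1r2 can all engage, stayed between 4.04 and 5.37 FPKM in the 6 libraries. It had 5.14, 5.37 and 4.30 FPKM in Initial A, B and C and 4.37, 4.93 and 4.04 FPKM in Induced A, B and C. It was lower after culture in each mouse, but the groups overlapped (log2 fold change -0.12, SE 0.11, limma adjusted p = 0.356). When the T cell receptor chain genes Cd3d, Cd3e, Cd3g, Cd247 and Trdc set the scale (CD3 scaling below), the log2 fold change was 0.06 (limma adjusted p = 0.693). Among the genes that set that scale, Cd3e itself went from 318 ± 12.6 to 220 ± 5.01 FPKM (SD, n = 3). A p above the threshold does not show that the level was the same. Reads of Il1rap cannot be told from those of Gm20319, which overlaps it on the other strand, since no source used here gives the strand setting of the counting.

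The 2 chains of the IL-18 receptor rose together but by different amounts. Il18r1, the ligand-binding chain, had 13.1, 14.0 and 16.6 FPKM in Initial A, B and C and 29.98, 31.1 and 33.2 FPKM in Induced A, B and C. Its mean went from 14.6 ± 1.79 to 31.4 ± 1.66 FPKM (SD, n = 3; log2 fold change 1.06, SE 0.10, limma adjusted p = 2.8e-05). Induced levels were 2.28, 2.22 and 2.005 times the Initial levels in mice A, B and C, so the mice were close to each other. Il18rap, the accessory chain needed for signalling, had 11.6, 12.5 and 14.4 FPKM before and 48.3, 44.6 and 46.3 FPKM after culture. Its mean went from 12.8 ± 1.40 to 46.4 ± 1.84 FPKM (log2 fold change 1.78, SE 0.09, limma adjusted p = 1.1e-06), with ratios of 4.15, 3.58 and 3.23 in mice A, B and C. Il18rap then stood above Il18r1 in every Induced library, and below it in every Initial library. Larger rises were seen in 11.1% of tested genes for Il18r1 and 4.70% for Il18rap.

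Sigirr, the inhibitory family member, had the highest level of the 8 before culture. It stood at 45.1, 50.1 and 49.6 FPKM in Initial A, B and C and at 39.7, 42.2 and 41.0 FPKM in Induced A, B and C. The groups did not overlap, and the fall from 48.3 ± 2.78 to 41.0 ± 1.28 FPKM (SD, n = 3) was the smallest change that passed among the members (log2 fold change -0.23, SE 0.07, limma adjusted p = 0.0152). It was lost without Induced library A (adjusted p = 0.0661) and with the CD3 scaling (log2 fold change -0.0084, adjusted p = 0.932). That scaling raised the log2 fold changes of the tested genes by a median of 0.21, and 67.3% of called genes rose there, against 52.9% with the values as deposited. In contrast, Il1r1, Il1r2, Il18r1 and Il18rap passed with the same direction in all 15 alternatives.

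The IL-33 receptor gene Il1rl1 and the antagonist gene Il1rn were near the limit of detection. Il1rl1 was listed at 0.0481, 0.0566 and 0.154 FPKM in Initial A, B and C and at 0.149, 0.120 and 0.172 FPKM in Induced A, B and C, which by a rough estimate is 6 to 23 fragments a library. The groups overlapped. Il1rn was listed at 0.543, 0.296 and 0.531 FPKM before and 0.0890, 0.159 and 0.0158 FPKM after culture, a rough 1 to 32 fragments. Its groups did not overlap. Initial A and C were too close to be ranked at this depth, and B was the lowest, as for Il1r2 and the neutrophil markers. The summed macrophage and monocyte markers were lowest in Initial C instead. The part of neutrophils, macrophages and monocytes in the level of Il1rn was not tested. Neither gene was tested in the main comparison. Without a filter on low values, Il1rn had a log2 fold change of -0.42 (SE 0.10, limma adjusted p = 0.0138) and Il1rl1 of 0.08 (SE 0.06, limma adjusted p = 0.347). Of 9 mast cell and basophil markers, whose cells express Il1rl1, 3 were tested. The protease genes Prss34 (0.0132 to 6.21 FPKM) and Cpa3 (0.444 to 1.69 FPKM) rose, and Kit, the most abundant of the list before culture, fell from 10.5 to 4.38 FPKM. Of the 9, 5 were higher in every Induced library and 2, Kit and the mast cell protease gene Cma1 (0.229 to 0.0256 FPKM), were lower. The higher ones included Mcpt8 (0.0362 to 1.51 FPKM), Fcer1a (0.271 to 0.514 FPKM) and Ms4a2 (0.113 to 0.206 FPKM), all below the filter. Mcpt4 was at no more than 0.0436 FPKM in any library. The list summed to 9.52 to 13.2 FPKM in Initial and 8.67 to 21.4 FPKM in Induced libraries. The part of mast cells and basophils in the level of Il1rl1 was not tested.

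In Initial cells the order of mean levels was Sigirr, Il18r1, Il18rap, Il1r2, Il1rap, Il1r1, Il1rn and Il1rl1. The library ranges of Il18r1 and Il18rap overlapped, while Il1r2 stood above Il1rap in every library and by as little as 0.0536 FPKM in B. In Induced cells the order was Il18rap, Sigirr, Il18r1, Il1r1, Il1rap, Il1r2, Il1rl1 and Il1rn. There the ranges of neighbouring members overlapped for Il1rl1 and Il1rn alone, which stood under 0.2 FPKM.

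Ratios between members within a library do not depend on how the library was scaled. The FPKM of Il1r1 was 0.348, 0.553 and 0.468 times that of Il1r2 in Initial A, B and C and 18.9, 12.4 and 12.5 times in Induced A, B and C. Put as a share, Il1r1 made up 25.8 to 35.6% of the summed FPKM of Il1r1 and Il1r2 before culture and 92.6 to 94.96% after. The log2 ratio, with 0.1 FPKM added to both genes, rose by 4.87 from -1.13 ± 0.33 to 3.73 ± 0.34 (SD, n = 3). Il1r1 also went from below to above its accessory chain, from 0.684, 0.558 and 0.744 times Il1rap to 5.06, 4.38 and 3.12 times. The ratio of Il18r1 to Il18rap was 1.13, 1.12 and 1.16 in the Initial libraries and 0.621, 0.697 and 0.718 in the Induced libraries.

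Il1r1 also shifted in relation to Sigirr and to Il18r1. Sigirr stood at 12.8, 16.7 and 15.5 times Il1r1 in Initial A, B and C and 1.79, 1.96 and 3.26 times in Induced A, B and C. Il18r1 was 4.53 ± 0.734 times Il1r1 before and 1.81 ± 0.717 times after culture, with Induced C, at 2.64, apart from 1.36 and 1.44 in A and B. Il1rap was 0.391 ± 0.0793 times Il18rap before and 0.0961 ± 0.0127 times after. For all 6 pairs compared the groups did not overlap and the 3 mice moved in the same direction. The exact two-sided permutation test gave p = 0.1 for each pair, also after adjustment over the 6 pairs, which is the smallest value that 3 against 3 allows.

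**Figure D2:**
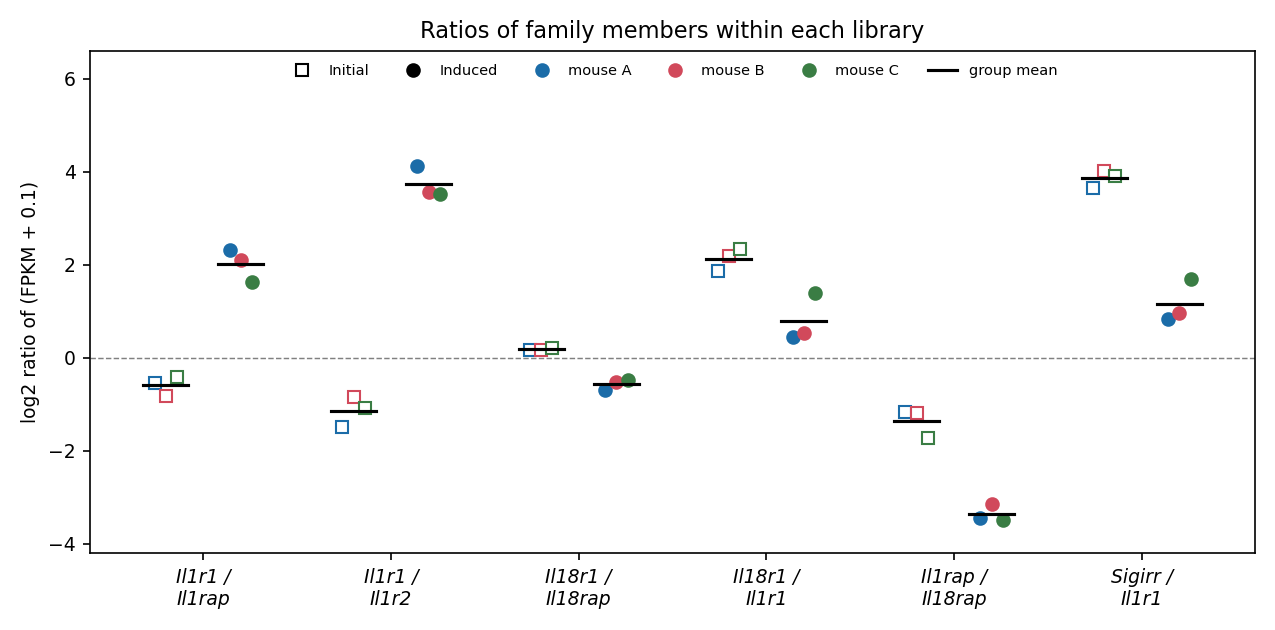
Log2 ratio of FPKM + 0.1 (y axis) for 6 pairs of members in each library. Open squares are Initial and filled circles Induced libraries, coloured by mouse, and black lines are group means. Initial and Induced libraries separate for every pair, most widely for Il1r1 over Il1r2, from a mean of -1.13 to 3.73.

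Of the 8 members, 5 lie in 1 cluster on chromosome 1. From the start of Il1r2 to the end of Il18rap the cluster spans 477627 bases and holds 6 protein-coding genes, all on the plus strand. Il1rl1 ends 136 bases before Il18r1 starts, and yet Il1rl1 stayed under 0.2 FPKM while Il18r1 had 31.4 ± 1.66 FPKM in Induced cells. The sixth gene, Il1rl2, the receptor for IL-36, had 1.24, 1.29 and 0.833 FPKM in Initial A, B and C and 0.512, 0.400 and 0.310 FPKM in Induced A, B and C. It was not tested, since only 2 libraries reached FPKM 1. The 4 other annotated genes, Gm16894, Gm37347, Gm38070 and Gm17970, were at most at 0.192 FPKM in any library. Within the cluster, levels were higher after culture in every library for Il1r1, Il18r1 and Il18rap and lower for Il1r2 and Il1rl2. The nearest tested coding gene on the left, Map4k4, a kinase gene, fell from 7.71 ± 1.27 to 2.62 ± 0.664 FPKM (log2 fold change -1.27, SE 0.16, limma adjusted p = 0.00021). On the right it was Mrps9, a mitochondrial ribosomal protein gene 2299527 bases away, which went from 31.4 ± 0.960 to 37.2 ± 1.38 FPKM (log2 fold change 0.24, SE 0.06, limma adjusted p = 0.0102).

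**Figure D3:**
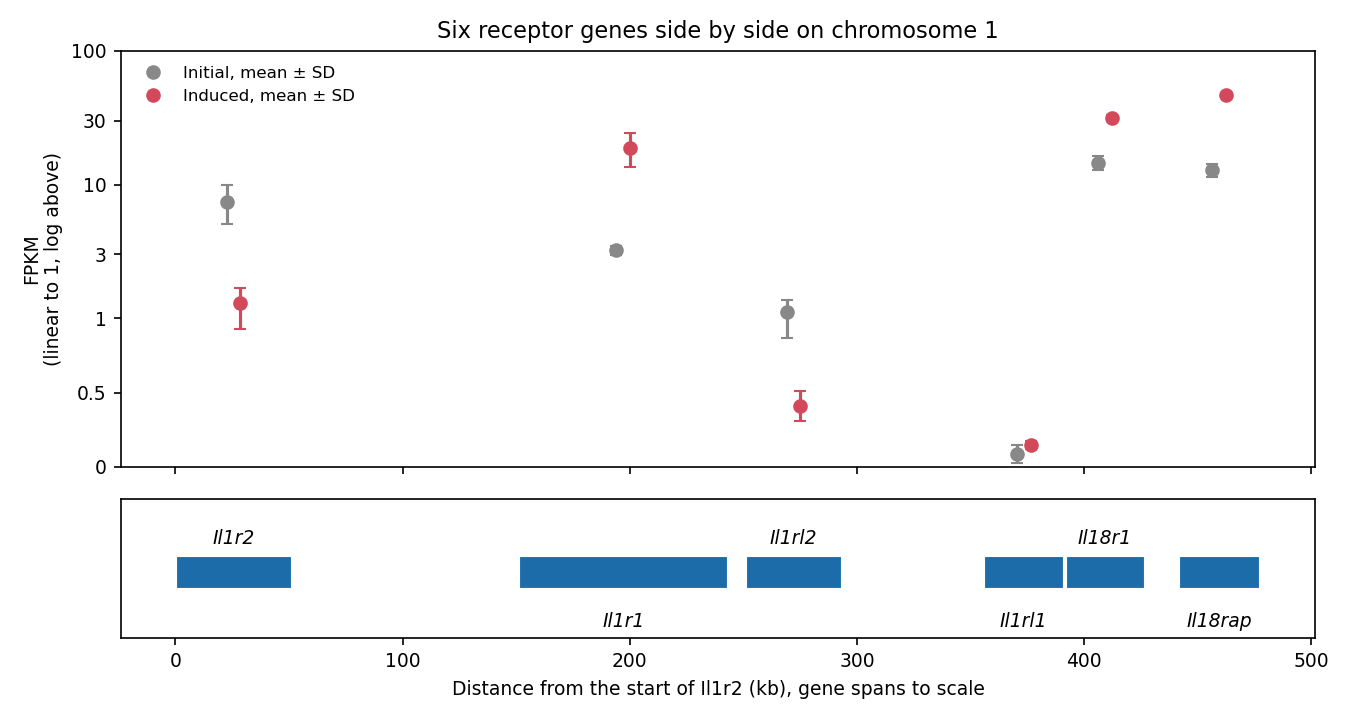
Mean FPKM ± SD of 3 libraries (upper panel, linear up to 1 and logarithmic above) for the 6 coding genes of the cluster in Initial (grey) and Induced (red) cells, above their spans drawn to scale (lower panel, kb from the start of Il1r2). Neighbouring genes differ in level and direction, with Il1r2 and Il1rl2 lower and Il1r1, Il18r1 and Il18rap higher after culture.

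The gene whose pattern was most like Il1r1 was Irak3, an inhibitory member of the IRAK family that acts below IL-1 and Toll-like receptors. Pearson's r over the 6 libraries on the log2(FPKM + 1) scale was 0.999. Irak3 had 4.05, 3.52 and 3.64 FPKM in Initial A, B and C and 87.6, 92.7 and 31.3 FPKM in Induced A, B and C, so Induced C was again the lowest (log2 fold change 3.77, SE 0.41, limma adjusted p = 0.00027). The next were Avpi1 (r = 0.999) and Hmgn3 (r = 0.999). For Il18r1 they were Commd3 (r = 0.999), Ran, the nuclear transport GTPase gene (r = 0.999), and Ugdh (r = 0.999). With 2 groups of 3 libraries, 1280 of the 6117 genes compared had an r over 0.95 with Il1r1 and 1479 with Il18r1, so these r values describe mostly the step between the groups.

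The ligand genes of the family fell in these libraries. Il1b was at 30.6, 28.5 and 20.6 FPKM in Initial A, B and C and at 0.110, 0.0709 and 0.0324 FPKM in Induced A, B and C (log2 fold change -4.67, SE 0.15, limma adjusted p = 1.5e-07). Il18 fell from 12.4 ± 2.41 to 0.632 ± 0.364 FPKM and Il1a from 2.73 ± 1.22 to 0.0626 ± 0.0371 FPKM, and the other ligand genes with a row, Il33 among them, were below the filter. These 3 ligand genes had their highest level in Initial A and their lowest in Initial C, as the macrophage markers did. Their part in this was not tested. Il18bp, a soluble inhibitor of IL-18, rose from 4.23 ± 1.23 to 7.71 ± 1.06 FPKM (log2 fold change 0.76, SE 0.18, limma adjusted p = 0.0069).

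Below the receptors, genes of the shared adaptors and kinases moved in both directions. In the list of TIR adaptors, IRAK kinases and the TRAF6 complex, 7 of 20 tested genes rose, 9 fell and 4 did not pass, with a median log2 fold change of -0.06 against 0.03 over all tested genes. Myd88, the adaptor of the whole family, had 59.0 ± 1.39 and 61.2 ± 2.70 FPKM and did not pass (limma adjusted p = 0.464). Besides Irak3, the largest rise was that of Tab2 (5.88 ± 0.460 to 15.03 ± 0.958 FPKM), which links TRAF6 to the kinase encoded by Map3k7. Map3k7 itself had 5.09 ± 1.12 and 5.09 ± 1.03 FPKM. The largest falls were those of Tifa, a TRAF6-binding adaptor gene (4.45 ± 1.04 to 0.102 ± 0.0892 FPKM), and Peli1, a ubiquitin ligase gene (121 ± 9.88 to 44.3 ± 7.24 FPKM). Traf6 fell from 16.7 ± 1.64 to 6.09 ± 0.399 FPKM, Irak1 from 12.8 ± 1.42 to 7.72 ± 2.49 FPKM and Irak2 from 24.2 ± 1.34 to 20.1 ± 0.601 FPKM, while Irak4 (11.4 ± 0.511 and 13.1 ± 1.21 FPKM) did not pass. Under the CD3 scaling the calls of Irak1 and Irak2 were lost (adjusted p = 0.067 and 0.753) and Myd88 and Irak4 passed as higher.

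The other tested genes of this list follow. The adaptor gene Pik3ap1 rose from 16.9 ± 0.902 to 32.7 ± 1.08 FPKM, and the ubiquitin-conjugating genes Ube2n (37.8 ± 0.530 to 51.5 ± 1.63 FPKM) and Ube2v1 (148 ± 8.86 to 194 ± 15.5 FPKM) rose as well. Among the subunits of the linear ubiquitin ligase, Rnf31 rose (12.6 ± 0.636 to 17.2 ± 0.0411 FPKM), Sharpin fell (57.6 ± 6.38 to 43.3 ± 0.701 FPKM) and Rbck1 had 117 ± 1.74 and 108 ± 8.24 FPKM, which did not pass here but passed as lower with the TMM-like scaling (limma adjusted p = 0.031) and without Induced library C (limma adjusted p = 0.0291). Tab1 rose from 8.14 ± 1.09 to 10.3 ± 0.810 FPKM, a call lost in 7 of its 15 alternatives, and Tab3 fell from 2.14 ± 0.639 to 1.07 ± 0.256 FPKM, a call lost with quantile normalization (limma adjusted p = 0.0755). Tollip, an inhibitor of IRAK activation, fell from 36.8 ± 2.57 to 24.9 ± 1.39 FPKM, and the scaffold gene Sqstm1 from 409 ± 22.3 to 151 ± 6.82 FPKM. Under the CD3 scaling the call of Sharpin was lost (adjusted p = 0.0744).

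Genes of the MAP kinase and IKK arm and of NF-κB feedback fell more often than they rose, against 37.3% of all tested genes that rose and 33.1% that fell. Under the CD3 scaling the background was 5423 of 11250 tested genes that rose and 2635 that fell. In the first list 5 of 24 tested genes (20.8%) rose, 15 (62.5%) fell and 4 did not pass, with a median log2 fold change of -0.48, and under the CD3 scaling 6 rose and 12 fell. The kinase genes Mapkapk3 (30.5 ± 2.42 to 83.0 ± 3.61 FPKM) and Mapkapk2 (5.24 ± 1.28 to 9.89 ± 1.34 FPKM) rose most, and Fos (308 ± 53.4 to 0.829 ± 0.211 FPKM) and the NF-κB subunit gene Rel (16.4 ± 2.13 to 1.60 ± 0.197 FPKM) fell most. Of 16 feedback inhibitors and NF-κB targets 12 (75%) fell and 4 did not pass (median log2 fold change -0.67), and under the CD3 scaling 8 fell and 3 rose. Dusp1, a MAP kinase phosphatase gene (390 ± 58.4 to 15.5 ± 2.99 FPKM), and Tnfaip3, the A20 gene (633 ± 43.4 to 26.4 ± 6.29 FPKM), fell most. In a list of type 17 and type 1 genes 6 of 12 (50%) rose, 3 (25%) fell and 3 did not pass (median log2 fold change 1.12), beside the same shares of 37.3% and 33.1% over all tested genes. Il2ra, the IL-2 receptor α chain gene, rose from 5.64 ± 0.555 to 74.5 ± 3.38 FPKM. The cytokine gene Il22 (4.72 ± 1.005 to 0.156 ± 0.0970 FPKM) fell most, together with Ccr6, a receptor for the chemokine CCL20 (4.42 ± 0.394 to 0.792 ± 0.166 FPKM). These lists do not separate IL-1 family signalling from other inputs to the same genes.

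**Figure D4:**
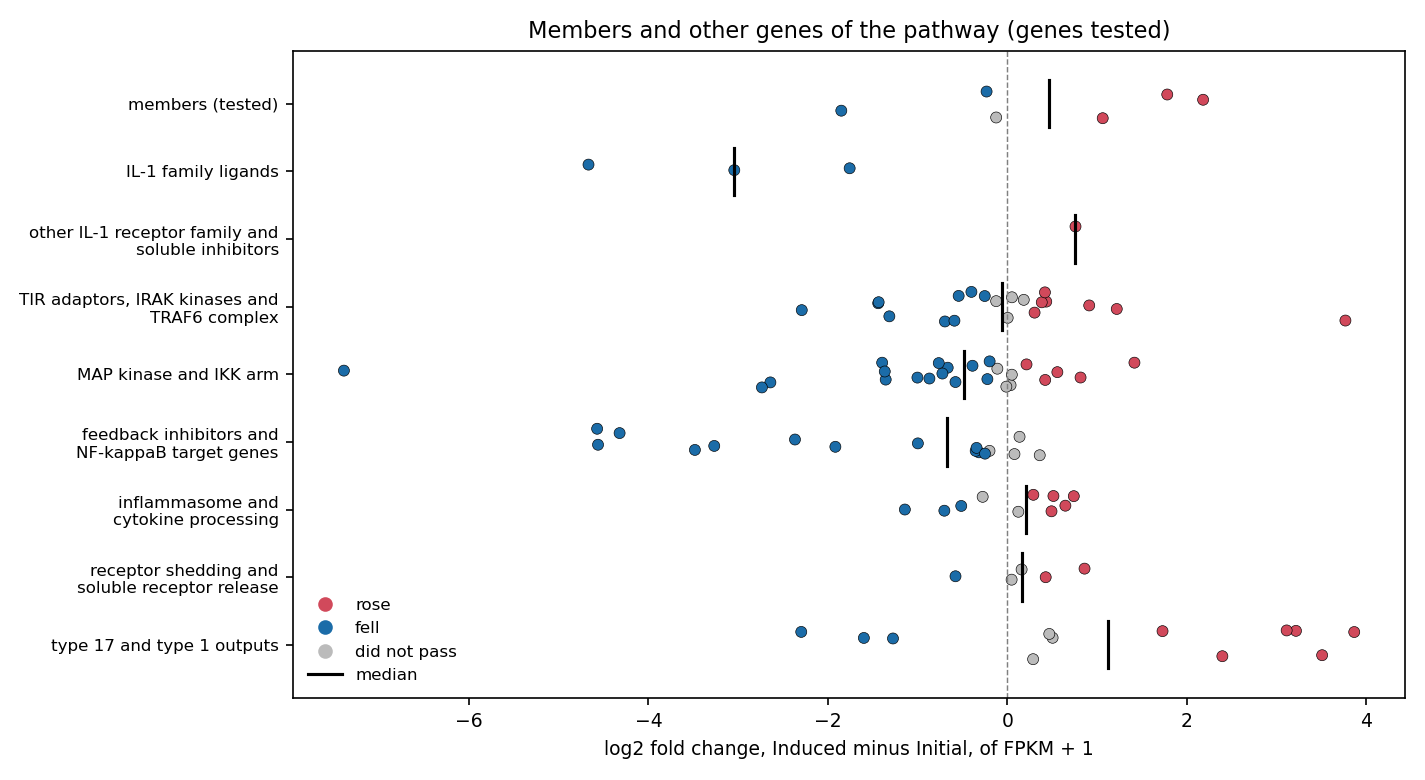
Log2 fold change of FPKM + 1, Induced minus Initial (x axis), of the tested members and of tested genes in 8 lists of the pathway (rows). Each point is a gene, red where it rose, blue where it fell and grey where it did not pass, and black bars are medians. The 3 ligand genes lie left of 0, the feedback list has a median of -0.67, and the type 17 and type 1 list one of 1.12.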

How the data were processed

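Messenger RNA of 6 libraries was measured, 3 Initial and 3 Induced, grouped by their titles. Per the labels' protocols the authors computed the deposited FPKM values with Cuffdiff. The submitters' processing notes name CASAVA, HISAT2 2.0.5, Cuffdiff 1.3.0 and 2.2.1, and mm9. The deposited positions are not those of mm9: of 26669 identifiers in GENCODE (GRCm38), 99.9% lie on the same chromosome and 90.7% inside the span in the file. No deposited FPKM value is 0, so a gene with no row was set to 0.

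The 8 members and all lists were chosen with earlier results of these data known. Tests used limma 3.58.1 (R 4.3.3) on log2(FPKM + 1) with trend and robust shrinkage, two-sided, for genes that reached FPKM 1 in 3 or more libraries. The main tests used the group only, without pairing. Titles give the same mouse letters in both groups, and libraries were paired by letter only for values by mouse and for the mouse as a block. No source used here says whether a letter stands for the same spleen. Deviations from the group means correlated at 0.0394, 0.0307 and 0.131 within mice A, B and C and from -0.132 to 0.0988 between mice, so the data do not show the pairing clearly. The alternatives were a pseudocount of 0.1 or 5, a filter at FPKM 5 or none, TMM-like, quantile and CD3 and Trdc scaling (Cd3d, Cd3e, Cd3g, Cd247 and Trdc), the mouse as a block, no trend or robust shrinkage, and leaving out each library. Named genes are the members, the 2 largest rises and falls of each list, expressed genes of the first 3 lists, cluster neighbours and, for Il1r1 and Il18r1, the 3 highest Pearson r among tested genes with mean FPKM of at least 10. The Rik clones, predicted genes and receptor segments were passed over there. A gene that this rule names is not reported here.

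No counts were used. From the step between low values, depth was roughly 18900000 to 25100000 fragments a library, with 46.4 to 50.3% of low values within 0.15 of a whole fragment. Correlations across genes were 0.986 to 0.996 within and 0.786 to 0.827 between groups. The labels do not say whether cells of a mouse were split into separate cultures, so p-values measure the spread between these libraries. The test was also run on simulated data in which only a small part of the genes changed. In the real data 70.4% of tested genes were called, so that run does not show how the test performs here. Tables were made in Python 3.11.15 with pandas 2.3.3, the exact test used scipy 1.17.1, and figures matplotlib 3.10.9.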

Additional observations from a re-analysis of the deposited data

How the results depend on the processing

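Il1r1, Il1r2, Il18r1 and Il18rap kept direction and call in all 15 alternatives, with log2 fold changes of 1.502 to 2.46, -2.41 to -0.97, 0.90 to 1.28 and 1.53 to 1.999. Sigirr passed in 13 of 15. It was lost under the CD3 scaling (-0.0084) and without Induced library A (-0.21), and leaving out each library gave -0.28 to -0.20. Il1rap did not pass in any of 14 alternatives, and its sign turned under the CD3 scaling (0.0625); under the filter at FPKM 5 it was not tested. The number of genes changed was 7931, 7943 with the mouse as a replicate block, and 7103 to 7916 with each library left out. The replicate block changed no call of a member. For the ratios it gives 3 pairs, whose exact test cannot pass. All 6 ratios kept their direction in every alternative run. Il1rl1 and Il1rn could be fitted only without a filter. At their few fragments a library, changes of these genes rest on little depth.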

Other observations

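Genes that process IL-1 family cytokines or release their receptors were also measured, with no explanation weighed. Of 10 tested inflammasome genes, 5 (50%) rose, 3 (30%) fell and 2 did not pass (median log2 fold change 0.21), against 37.3% and 33.1% of all tested genes. Naip2 (1.58 ± 0.256 to 3.31 ± 0.424 FPKM) and Casp1, the protease that activates IL-1β and IL-18 (39.8 ± 3.17 to 63.0 ± 6.997 FPKM), rose most, and Nlrc4 (1.47 ± 0.373 to 0.110 ± 0.0150 FPKM) and Naip5 (2.002 ± 0.231 to 0.846 ± 0.142 FPKM) fell most. The Naip genes are close copies of each other, so how their reads were divided is uncertain.

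Of 5 tested genes in the list for receptor shedding, 2 (40%) rose and 1 (20%) fell, against 37.3% and 33.1% of all tested genes. Under the CD3 scaling 4 of the list rose, where 5423 of all 11250 tested genes rose. Adam17, a membrane protease gene whose product can release Il1r2 from the cell surface, rose from 22.4 ± 0.873 to 30.4 ± 1.57 FPKM (log2 fold change 0.43, SE 0.07, limma adjusted p = 0.00076), while Bace1 fell from 2.71 ± 0.412 to 1.48 ± 0.257 FPKM. The other listed gene that rose, Ern1, went from 2.81 ± 0.742 to 5.84 ± 0.600 FPKM. It encodes a sensor of endoplasmic reticulum stress and not a receptor protease, so the count for this list is not one of shedding genes alone.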
